A study of Mus musculus with 6 samples.

Results

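The genes described here are 32 genes of glucose handling: those for glucose and lactate transport, the glycolytic enzymes, the enzymes that make fructose 2,6-bisphosphate, pyruvate dehydrogenase kinase 1 and the enzymes of the pentose phosphate pathway. They were taken by symbol from a table of 46095 genes. All 32 had counts, and all 32 passed the filter on low counts that left 13215 genes for testing. The study measured RNA by sequencing in macrophages grown from the bone marrow of C57BL/6 mice aged 56 days. One group of libraries came from wild-type mice (WT, 3 libraries) and the other from Cd226-/- mice (3 libraries), which lack CD226, an activating adhesion receptor of lymphocytes and myeloid cells. Cells of both genotypes received M-CSF at 20 ng/mL for 7 days, and were then stimulated for 24 h with LPS (100 ng/mL) together with IFN-γ (20 ng/mL), the usual way to bring macrophages into the inflammatory M1 state. No unstimulated cells are analysed here, so both groups carry the stimulus. The labels do not say how the allele was made, nor whether replicates came from separate animals or cultures. P-values therefore measure the spread between these libraries, which may be technical.

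Glycolysis splits glucose into pyruvate in the cytosol, and lactate dehydrogenase turns pyruvate into lactate, which leaves the cell through monocarboxylate transporters. The pentose phosphate pathway branches off at glucose 6-phosphate: its oxidative arm makes NADPH, and its non-oxidative arm exchanges sugars with glycolysis at fructose 6-phosphate and glyceraldehyde 3-phosphate. Macrophages activated by LPS and IFN-γ are known for high glycolysis, and they use NADPH for nitric oxide, superoxide and the upkeep of glutathione.

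The libraries held 16838527 to 21658061 counts. Summed markers of macrophages stood at 17914 to 19874 CPM (read counts scaled to a common library size by TMM) in WT and 19192 to 19984 CPM in Cd226-/- libraries, so these markers were abundant in both genotypes. Single markers changed both ways: of 8 macrophage markers 4 rose and 3 fell (Csf1r, Itgam and Cd14), and of 6 M1 markers 4 rose and 2 fell (Il6 and Acod1). Markers of some other cell types moved with the genotype: 4 of 6 stromal markers rose (summed 494 to 573 CPM in WT and 760 to 792 CPM in Cd226-/-), as did 5 of 6 B cell markers (13.4 to 15.7 and 30.8 to 41.2 CPM) and 3 of 6 proliferation markers (26.1 to 30.9 and 31.3 to 45.8 CPM). Summed T cell markers stood at 4.85 to 6.51 CPM in WT and 6.83 to 8.50 CPM in Cd226-/- libraries, neutrophil markers at 49.4 to 62.7 and 57.7 to 64.4 CPM, and dendritic cell markers at 5.60 to 7.05 and 6.94 to 7.25 CPM. The neutrophil sum was almost all S100a8, at 48.6 to 61.8 CPM in WT and 56.4 to 62.9 CPM in Cd226-/- libraries. Of the 8 neutrophil markers, 6 had 20 counts or fewer over all libraries. The 5 erythroid markers each had 20 counts or fewer over all libraries. Hepatocyte markers were seen in 2 libraries, at 19.5 CPM in Cd226-/- replicate 2 and 19.6 CPM in replicate 3, against 0 CPM in replicate 1 and at most 0.0584 CPM in WT libraries. Those 2 replicates were also the most alike by their counts. The part of these other cells in the results that follow was not tested. The Cd226 row, at 5, 17 and 23 counts for WT against 11, 10 and 8 for Cd226-/- (adjusted p = 0.480, edgeR), does not check the labels. In bulk RNA, a change in the number of cells of a type and a change in RNA per cell cannot be told apart.

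The genes of glucose uptake and of the first steps of glycolysis were mostly higher in Cd226-/- macrophages, and several of the pentose phosphate pathway were lower. Of the 32 genes, 15 rose, 4 fell and 13 did not pass an adjusted p of 0.05 (edgeR's quasi-likelihood test, adjusted by Benjamini and Hochberg over all 13215 genes). Over all genes tested, 16.1% were called higher and 14.8% lower. Of the 25 genes outside the pentose phosphate pathway 15 rose and 1 fell. Of the 7 pentose phosphate genes 3 fell and 4 missed the threshold. The libraries of the genotypes did not overlap for 20 of the 32 genes, against 44.3% of all genes tested, and 18 of those 20 were called. The median log2 fold change was 0.33 over the 25 genes, -0.19 over the 7 and -0.00448 over all genes tested. Scaling by library size alone left 15 of the 32 genes called higher and made 5 lower, while over all genes it moved the split from 2130 higher and 1956 lower to 1773 higher and 2770 lower. The plot of fold changes by step shows the calls in pathway order.

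**Figure D1:**
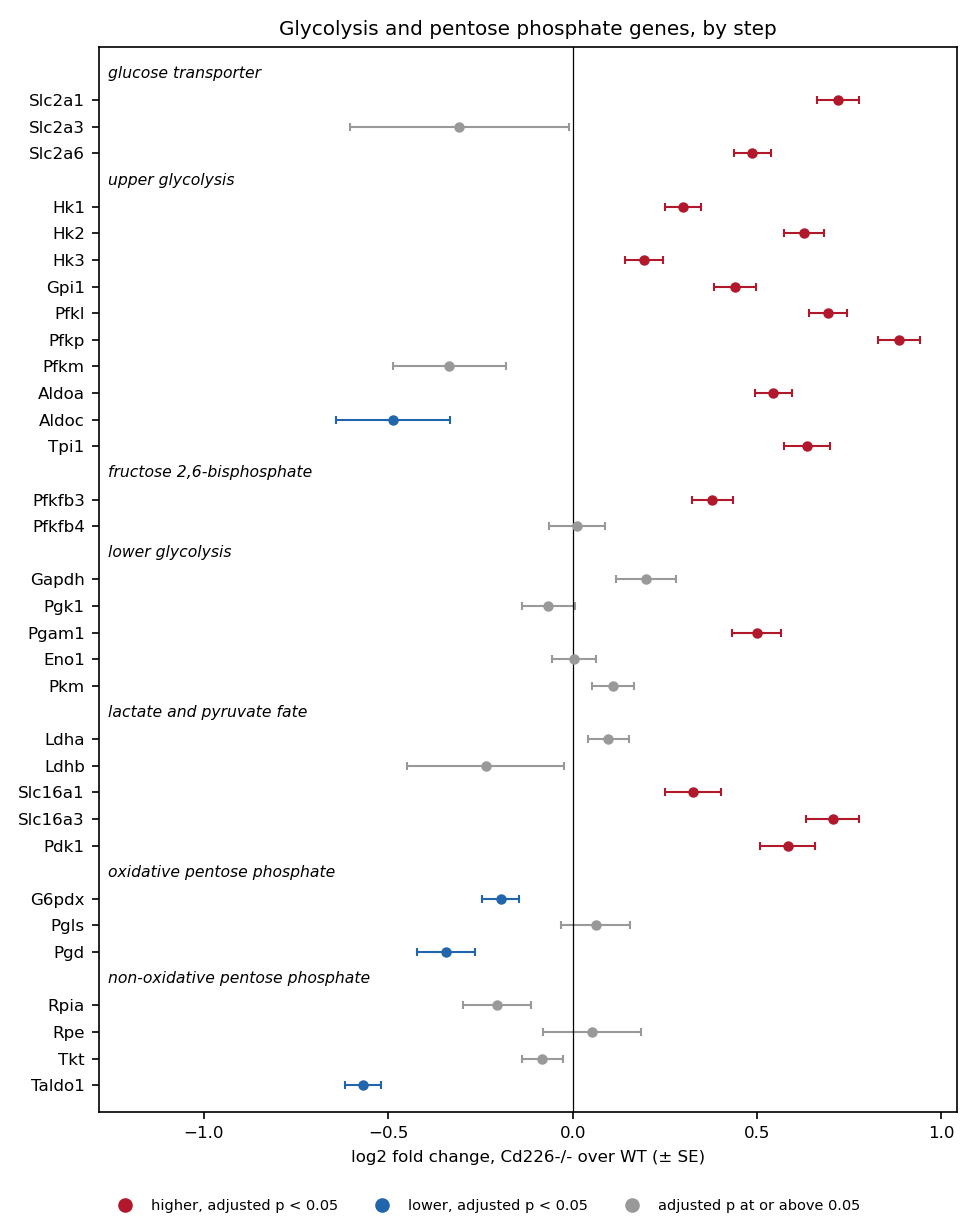
Log2 fold change of each of the 32 genes, Cd226-/- over WT (x axis, 3 libraries a genotype), in pathway order (y axis); points are edgeR estimates and bars are ± 1 SE. The genes called higher lie mainly from glucose uptake to Tpi1. The 5 lower glycolysis genes hold 1 call, and the 3 pentose phosphate genes called are all lower. Of all genes tested 16.1% were higher and 14.8% lower at the threshold.

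Upstream sequence was available for 31 of the 32 genes, in 45 windows of 250 bases before an annotated start (RefSeq, GRCm38.p6). For 39 of the 45 windows, the bases just after the window occurred in a GENCODE transcript of the gene. Some windows overlap annotated exons, over all 250 bases for G6pdx and for 1 window each of Pdk1 and Eno1. All 45 windows were kept in the counts below. Each window was searched on both strands for 3 motifs. ACGTG is the core of the element that hypoxia-inducible factors bind, CACGTG is the E-box bound by MYC and MLX family proteins and contains ACGTG, and TGACNNNGC is the core of the antioxidant response element. ACGTG stood in 15 of the 45 windows, or 33.3%, against 16.6% of all 32851 windows. Among the genes that rose it stood in 10 of 20 windows, belonging to 8 of 15 genes: Slc2a1, Hk2, Hk3, Aldoa, Pfkfb3, Pgam1, Slc16a1 and Slc16a3. The 2 Aldoa windows with a match overlap and hold the same one. Among the genes that missed the threshold it stood in 5 of 19 windows, those of Pfkm, Pgk1, Pkm and Ldha. Among the 4 genes that fell it stood in 0 of 6 windows. CACGTG was found in 4 windows (8.89%, against 6.02% of all) and TGACNNNGC in 4 windows, of Hk1, Aldoa, Slc16a1 and G6pdx (8.89%, against 10.2% of all). A match of letters is not a measured site. A few windows without annotated exons are printed, 5′ to 3′ on the gene's strand, to show genes that rose (Hk2, chr6:82774455-82774704, minus strand; Pgam1, chr19:41911621-41911870, plus strand; Slc16a1, chr3:104638414-104638663, plus strand), 1 that missed with matches (Pgk1, chrX:106186850-106187099, plus strand) and the gene that fell most clearly (Taldo1, chr7:141391910-141392159, plus strand). Capitals mark ACGTG or its reverse complement CACGT, and TGACNNNGC or its reverse complement.
Hk2: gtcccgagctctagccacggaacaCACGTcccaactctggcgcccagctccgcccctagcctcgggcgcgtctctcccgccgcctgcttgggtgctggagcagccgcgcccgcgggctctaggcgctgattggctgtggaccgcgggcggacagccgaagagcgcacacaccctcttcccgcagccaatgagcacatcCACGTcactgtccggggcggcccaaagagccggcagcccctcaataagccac
Pgam1: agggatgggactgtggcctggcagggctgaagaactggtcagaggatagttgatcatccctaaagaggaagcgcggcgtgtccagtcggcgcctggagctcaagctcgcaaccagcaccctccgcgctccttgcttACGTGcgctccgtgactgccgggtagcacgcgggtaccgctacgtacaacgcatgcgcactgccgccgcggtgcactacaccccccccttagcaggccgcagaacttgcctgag
Slc16a1: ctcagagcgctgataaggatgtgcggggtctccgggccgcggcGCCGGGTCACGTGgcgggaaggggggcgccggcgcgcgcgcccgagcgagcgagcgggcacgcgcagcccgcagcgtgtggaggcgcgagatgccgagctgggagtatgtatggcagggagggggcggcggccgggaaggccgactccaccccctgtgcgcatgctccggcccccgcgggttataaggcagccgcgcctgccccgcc
Pgk1: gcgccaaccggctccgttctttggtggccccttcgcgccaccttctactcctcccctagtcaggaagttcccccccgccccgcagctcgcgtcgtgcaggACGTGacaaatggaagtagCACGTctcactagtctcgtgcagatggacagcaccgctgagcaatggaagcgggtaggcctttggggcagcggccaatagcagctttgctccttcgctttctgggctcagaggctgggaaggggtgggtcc
Taldo1: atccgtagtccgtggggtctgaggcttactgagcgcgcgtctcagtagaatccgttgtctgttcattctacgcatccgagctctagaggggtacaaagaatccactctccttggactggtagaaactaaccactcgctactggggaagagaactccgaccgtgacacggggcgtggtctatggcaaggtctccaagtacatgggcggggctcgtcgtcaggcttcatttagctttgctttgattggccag
The Hk2 window holds CACGT at 2 places, the Pgam1 window ACGTG once, and the Pgk1 window both orders once each. In the Slc16a1 window the reverse complement of TGACNNNGC runs into CACGTG, so the matches overlap. The Taldo1 window holds none of the 3 motifs.

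Glucose enters macrophages mainly through GLUT1, encoded by Slc2a1 (chromosome 4, 119108745 to 119137330). Slc2a1 stood at 164, 171 and 162 CPM in WT replicates 1 to 3 and at 302, 263 and 255 CPM in Cd226-/- replicates 1 to 3. Every Cd226-/- library lay above every WT library, with replicate 1 the highest. The rise was 1.65-fold (log2 fold change 0.72 ± 0.058 SE, adjusted p = 6.65e-09, edgeR). Slc2a6, which encodes GLUT6, a transporter of intracellular membranes that is induced in inflammatory macrophages, measured 198, 192 and 197 CPM in WT and 262, 287 and 274 CPM in Cd226-/- libraries. Its groups did not overlap either, and it rose 1.40-fold (adjusted p = 1.27e-07, edgeR). Slc2a3, for GLUT3, was near 2 CPM in both genotypes and missed the threshold (log2 fold change -0.31 ± 0.30 SE, adjusted p = 0.467, edgeR). The 3 transporters summed to 364 ± 1.73 CPM in WT and 549 ± 17.9 CPM in Cd226-/- libraries (SD, n = 3).

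Hexokinases trap glucose as glucose 6-phosphate. All 3 of the hexokinase genes listed rose. Hk2, the inducible and mitochondria-bound form, measured 151, 146 and 134 CPM in WT and 233, 219 and 213 CPM in Cd226-/- libraries, with no overlap, a 1.54-fold rise (log2 fold change 0.63 ± 0.055 SE, adjusted p = 1.46e-08, edgeR). Hk1, the form found in most tissues, measured 152, 153 and 154 CPM in WT and 195, 185 and 185 CPM in Cd226-/- libraries and rose 1.23-fold. Hk3, the form of myeloid cells, was by far the most abundant of the 3, at 1149, 1127 and 1174 CPM in WT and 1373, 1317 and 1255 CPM in Cd226-/- libraries. Its groups did not overlap, but the rise was small, 1.14-fold (adjusted p = 0.00562, edgeR). Gpi1 (chromosome 7, 34201327 to 34230336) encodes glucose 6-phosphate isomerase, which stands at the branch between glycolysis and the pentose phosphate pathway. It measured 476, 492 and 515 CPM in WT and 735, 639 and 638 CPM in Cd226-/- libraries, a 1.36-fold rise without overlap (adjusted p = 3.96e-06, edgeR). Exons of Gpi1 overlap those of Gm26762 on the opposite strand over 12.3% of their bases.

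Phosphofructokinase commits sugar to glycolysis, and the genes of its platelet-type and liver-type subunits rose. Pfkp (chromosome 13, 6579874 to 6649060), the platelet type, measured 90.5, 87.3 and 98.1 CPM in WT and 180, 168 and 161 CPM in Cd226-/- libraries. Its rise of 1.85-fold was the largest among the 32 genes (log2 fold change 0.88 ± 0.057 SE, adjusted p = 1.56e-10, edgeR). Pfkl, the liver type, measured 182, 192 and 173 CPM in WT and 307, 293 and 285 CPM in Cd226-/- libraries and rose 1.62-fold (adjusted p = 1.44e-09, edgeR). For both genes the lowest Cd226-/- library lay well above the highest WT library. Pfkm, the muscle type, was low, at 8.59, 7.36 and 6.78 CPM in WT and 5.84, 6.17 and 5.99 CPM in Cd226-/- libraries. Its groups did not overlap, yet it missed the threshold (log2 fold change -0.33 ± 0.15 SE, adjusted p = 0.102, edgeR). Exons of Pfkp overlap those of Pitrm1 on the opposite strand over 17.4% of their bases, and the strand setting of the counts is not given in the sources used here. Pitrm1 itself missed the threshold (log2 fold change -0.19, adjusted p = 0.0564, edgeR).

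Aldolase and triose phosphate isomerase split the sugar into triose phosphates and interconvert them. Aldoa, the main aldolase here, measured 855, 920 and 928 CPM in WT and 1353, 1316 and 1274 CPM in Cd226-/- libraries, a 1.46-fold rise without overlap (adjusted p = 3.98e-08, edgeR). Tpi1 (chromosome 6, 124810586 to 124814158), which interconverts the triose phosphates, measured 701, 690 and 792 CPM in WT and 1222, 1122 and 1048 CPM in Cd226-/- libraries. It rose 1.55-fold, again without overlap (adjusted p = 2.43e-07, edgeR). Aldoc, the brain-type aldolase, was the 1 gene that fell among the 25 outside the pentose phosphate pathway. It was low, at 8.37, 11.8 and 11.9 CPM in WT and 6.88, 9.10 and 6.97 CPM in Cd226-/- libraries, and the groups overlapped. It fell to 71.4% of the WT level (adjusted p = 0.0205, edgeR). The call was lost without WT replicate 2 (adjusted p = 0.0912), WT replicate 3 (0.112), Cd226-/- replicate 1 (0.0545) or Cd226-/- replicate 3 (0.0935), all edgeR. Over the 10 genes of upper glycolysis 8 rose and 1 fell, against 16.1% and 14.8% of all genes tested. Their summed CPM went from 3862 ± 111 to 5319 ± 272 (SD, n = 3), a ratio of 1.38.

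Fructose 2,6-bisphosphate activates phosphofructokinase, and the bifunctional enzymes of the PFKFB family set its level. Pfkfb3, the form with the strongest kinase activity and one induced by LPS, measured 565, 580 and 543 CPM in WT and 797, 704 and 694 CPM in Cd226-/- libraries. Every Cd226-/- library was above every WT library, a 1.30-fold rise (adjusted p = 1.75e-05, edgeR). Pfkfb4 measured 28.6 to 29.6 CPM in WT and 28.5 to 30.0 CPM in Cd226-/- libraries and missed the threshold (log2 fold change 0.01 ± 0.077 SE, adjusted p = 0.924, edgeR).

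**Figure D2:**
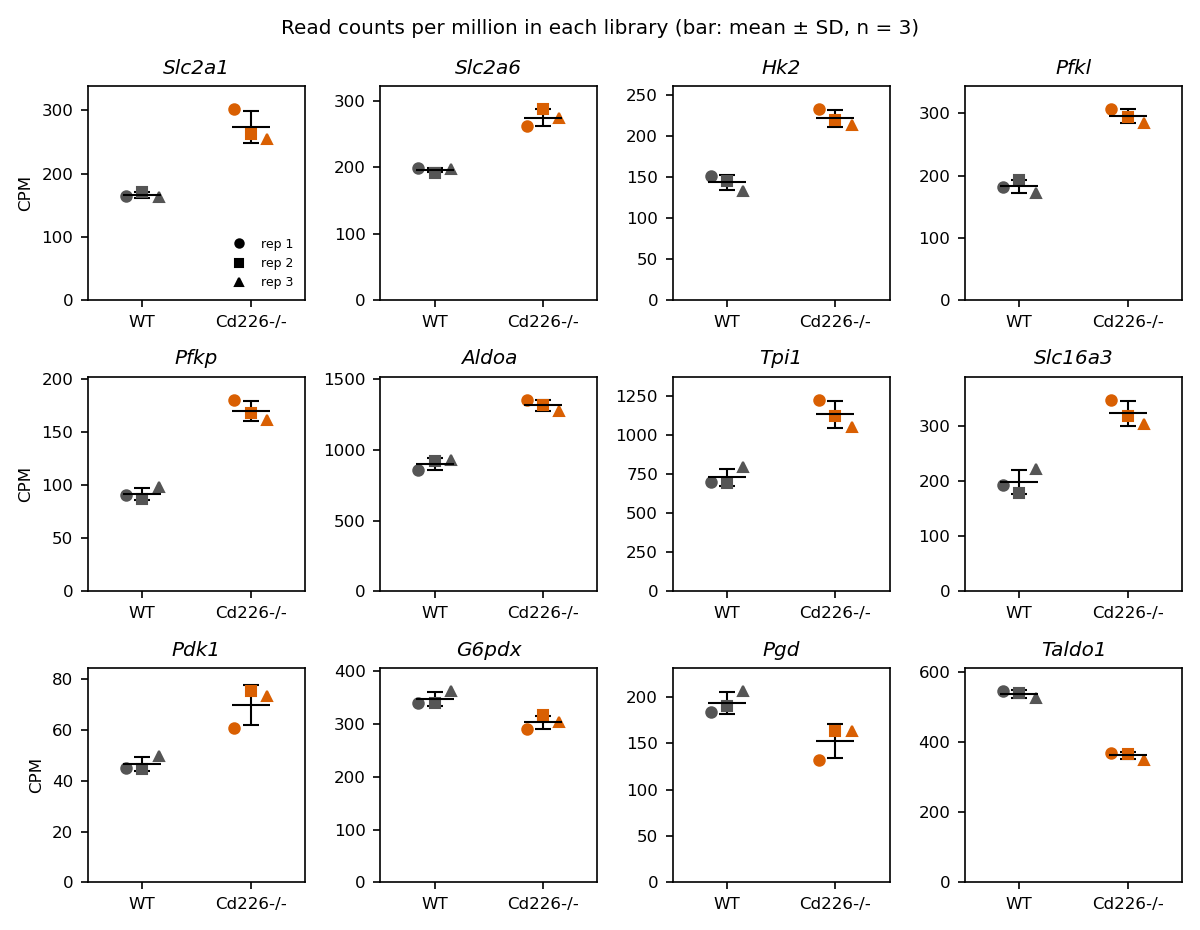
CPM scaled by TMM (y axis, from 0) of 12 of the genes called, in each WT and Cd226-/- library (x axis); the symbol gives the replicate and the bars the mean ± SD (n = 3). The genotypes do not overlap in any of the 12 panels, and G6pdx, Pgd and Taldo1 lie lower in Cd226-/- libraries.

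Below the triose phosphates, 1 of the 5 genes of lower glycolysis was called, Pgam1, against 30.9% of all genes tested, in either direction. So few genes do not set these steps apart by their calls. The median log2 fold change was 0.11 over these 5 genes, against 0.49 over the 10 of upper glycolysis. Gapdh, which missed, changed about as much as Hk3, which was called (log2 fold change 0.20 and 0.19). Pgam1, for phosphoglycerate mutase, measured 65.1, 63.4 and 77.8 CPM in WT and 96.0, 100 and 96.3 CPM in Cd226-/- libraries and rose 1.41-fold without overlap (adjusted p = 8.79e-06, edgeR). Gapdh, for glyceraldehyde 3-phosphate dehydrogenase, measured 80.7, 77.7 and 89.8 CPM in WT and 82.4, 103 and 99.4 CPM in Cd226-/- libraries. The groups overlapped through Cd226-/- replicate 1, and Gapdh missed the threshold (log2 fold change 0.20 ± 0.081 SE, adjusted p = 0.0790, edgeR). Without that library it passed (log2 fold change 0.29, adjusted p = 0.000292, edgeR), and so it did without WT replicate 3 (adjusted p = 0.0384, edgeR).

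Pgk1, for phosphoglycerate kinase, measured 169, 172 and 211 CPM in WT and 178, 178 and 171 CPM in Cd226-/- libraries and missed the threshold (log2 fold change -0.07 ± 0.072 SE, adjusted p = 0.528, edgeR). Eno1, for enolase, measured 320, 328 and 384 CPM in WT and 354, 343 and 338 CPM in Cd226-/- libraries (log2 fold change 0.0025 ± 0.060 SE, adjusted p = 0.980, edgeR). For both genes WT replicate 3 was the highest of the 6 libraries. Pkm, for pyruvate kinase, was the most abundant of the 32 genes, at 3514, 3487 and 3680 CPM in WT and 4202, 3712 and 3607 CPM in Cd226-/- libraries. Its groups overlapped, and it missed the threshold (log2 fold change 0.11 ± 0.058 SE, adjusted p = 0.163, edgeR). The rows do not separate the M1 and M2 splice forms of Pkm. Exons of Pkm overlap those of Gm49759 on the same strand over 12.9% of their bases.

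The same genes share sequence with processed pseudogenes, and how the counting treated reads that match several places is not given in the sources used here. As a measure, each gene's longest coding transcript (GENCODE, GRCm38) was cut into all its 50-base windows, and a window counted as shared where it also occurred in a transcript of another gene. The share was 82.5% for Gapdh, 72.2% for Eno1, 68.0% for Pgk1, 41.5% for Pgam1 and 34.4% for Pkm. It was 27.0% for Ldhb, 25.3% for Gpi1, 19.1% for Rpe, 17.1% for Pfkp and 16.6% for Ldha. Lower shares were 13.5% for Aldoa, 10.9% for Taldo1, 10.7% for G6pdx and 7.51% for Tpi1. Hk1 had 2.55%, Slc2a1 1.74%, Pfkfb3 0.631% and Pfkl 0.0543%. It was 0% for Hk2, Hk3, Slc2a6, Slc16a1, Slc16a3 and Pdk1, which rose, for Aldoc and Pgd, which fell, and for Slc2a3, Pfkm, Pfkfb4, Pgls, Rpia and Tkt, which missed the threshold. Of the 15 glycolytic enzymes, the 4 with at least 40% shared windows held 1 rise and 3 misses, and the other 11 held 8 rises, 1 fall and 2 misses. Over all 32 genes, the 28 under 40% held 14 rises, 4 falls and 10 misses. The value of 40% was chosen after the data were seen. The part of shared sequence in the missed calls was not tested.

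Gapdh shared at least 10% of its windows with each of 72 other genes, 70 of which had a row. These 70 rows summed to 96.7 ± 17.3 CPM in WT and 118 ± 8.15 CPM in Cd226-/- libraries (SD, n = 3), more than the Gapdh row itself. With the copies added, the log2 ratio of group means was 0.25 for Gapdh, 0.02 for Eno1, -0.04 for Pgk1 and 0.53 for Pgam1, while edgeR's fitted log2 fold changes of the single rows, a slightly different quantity, were 0.20, 0.0025, -0.07 and 0.50. Among the Eno1 copies is Eno1b, a near-identical gene at 190 ± 4.70 CPM in WT and 190 ± 12.8 CPM in Cd226-/- libraries, so the counts of Eno1 and Eno1b are uncertain.

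**Figure D3:**
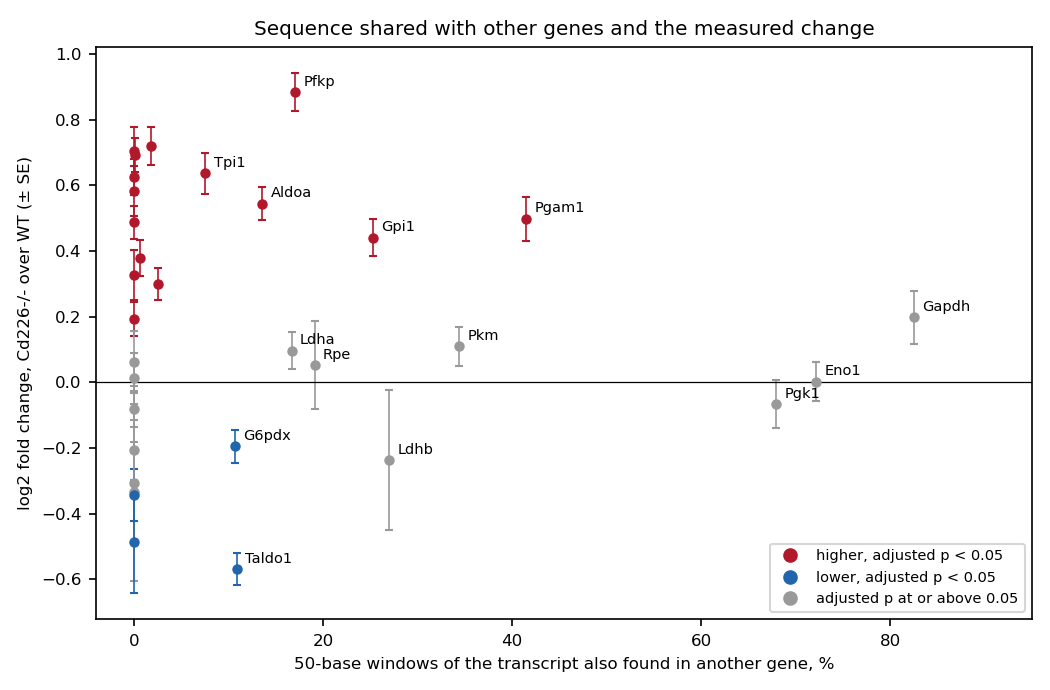
Log2 fold change of each of the 32 genes (y axis, Cd226-/- over WT, ± 1 SE, 3 libraries a genotype) against the percentage of its 50-base transcript windows found in another gene (x axis). Gapdh, Eno1 and Pgk1, the 3 genes above 60% on the x axis, all missed the threshold, while Pgam1 at 41.5% was called higher.

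The fate of pyruvate and lactate was covered by 5 genes, of which 3 rose, against 16.1% of all genes tested. Slc16a3 (chromosome 11, 120948484 to 120959000) encodes MCT4, the lactate exporter of glycolytic cells. It measured 193, 178 and 221 CPM in WT and 346, 318 and 302 CPM in Cd226-/- libraries, a 1.63-fold rise without overlap (log2 fold change 0.70 ± 0.073 SE, adjusted p = 6.61e-06, edgeR). Slc16a1, for the bidirectional lactate carrier MCT1, measured 44.9, 49.1 and 39.1 CPM in WT and 57.9, 52.8 and 55.7 CPM in Cd226-/- libraries. It rose 1.25-fold, with a narrow gap between the groups (adjusted p = 0.00219, edgeR). Pdk1 (chromosome 2, 71873215 to 71903858) encodes a kinase that inhibits pyruvate dehydrogenase and thereby the entry of pyruvate into the citric acid cycle. It measured 45.0, 44.8 and 49.6 CPM in WT and 60.7, 75.3 and 73.1 CPM in Cd226-/- libraries, a 1.50-fold rise without overlap (adjusted p = 7.25e-06, edgeR). For Pdk1, unlike Slc2a1 and Slc16a3, Cd226-/- replicate 1 was the lowest of its group.

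Ldha, the lactate dehydrogenase subunit that favours lactate formation, measured 1646, 1619 and 1744 CPM in WT and 1928, 1755 and 1674 CPM in Cd226-/- libraries. The groups overlapped and the gene missed the threshold (log2 fold change 0.10 ± 0.056 SE, adjusted p = 0.203, edgeR). Ldhb stood between 2.97 and 4.98 CPM in all 6 libraries and missed it too (log2 fold change -0.24, adjusted p = 0.431, edgeR). With replicate 1 as the only Cd226-/- library, assumed to vary like the WT libraries, Ldha and Pkm passed (log2 fold change 0.21, adjusted p = 0.00997, and 0.24, adjusted p = 0.00255, edgeR).

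The oxidative arm of the pentose phosphate pathway makes NADPH in 2 of its 3 steps, and the genes of both these steps fell. G6pdx (chromosome X, 74409483 to 74428880), for glucose 6-phosphate dehydrogenase, the rate-limiting enzyme, measured 339, 340 and 362 CPM in WT and 291, 316 and 303 CPM in Cd226-/- libraries. The groups did not overlap, and it fell to 87.4% of the WT level (log2 fold change -0.19 ± 0.050 SE, adjusted p = 0.00512, edgeR). Pgd (chromosome 4, 149149991 to 149166705), for 6-phosphogluconate dehydrogenase, measured 183, 190 and 206 CPM in WT and 131, 163 and 163 CPM in Cd226-/- libraries. It fell to 78.8% of the WT level (adjusted p = 0.00545, edgeR), and Cd226-/- replicate 1 was the lowest library. Pgls, for the lactonase between them, measured 21.8 to 28.7 CPM in WT and 26.0 to 26.8 CPM in Cd226-/- libraries and missed the threshold (log2 fold change 0.06 ± 0.094 SE, adjusted p = 0.651, edgeR).

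In the non-oxidative arm, the fall was that of Taldo1 (chromosome 7, 141392160 to 141402976), for transaldolase, which links the pathway back to glycolysis. Taldo1 measured 546, 540 and 525 CPM in WT and 369, 366 and 350 CPM in Cd226-/- libraries. Both groups were tight and far apart, and the gene fell to 67.4% of the WT level (log2 fold change -0.57 ± 0.048 SE, adjusted p = 8.53e-09, edgeR). Tkt, for transketolase, which works on the same sugars, measured 198, 219 and 193 CPM in WT and 185, 202 and 189 CPM in Cd226-/- libraries. These ranges overlapped, and Tkt missed the threshold (log2 fold change -0.08 ± 0.055 SE, adjusted p = 0.278, edgeR). Rpia, for ribose 5-phosphate isomerase, measured 21.5, 20.1 and 21.0 CPM in WT and 19.1, 18.3 and 16.9 CPM in Cd226-/- libraries. It did not overlap but missed the threshold (log2 fold change -0.21 ± 0.092 SE, adjusted p = 0.0953, edgeR), which it passed with scaling by library size alone (adjusted p = 0.0335). Rpe, for ribulose phosphate epimerase, measured 15.1 to 19.2 CPM in WT and 14.0 to 20.9 CPM in Cd226-/- libraries (log2 fold change 0.05, adjusted p = 0.803, edgeR). Exons of Rpe overlap those of Kansl1l on the opposite strand over 16.3% of their bases.

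Ratios of counts within a library need no scaling between libraries. Counts of the 7 pentose phosphate genes over those of the 10 genes of upper glycolysis gave 0.352, 0.353 and 0.340 for WT, against 0.185, 0.211 and 0.211 for Cd226-/- libraries. The WT ratios lay close together, and every Cd226-/- ratio was lower. Of the enzymes that meet at glucose and fructose 6-phosphate, G6pdx over Gpi1 was 0.714, 0.690 and 0.704 in WT and 0.396, 0.495 and 0.475 in Cd226-/- libraries. At the triose phosphates, Taldo1 over Tpi1 was 0.778, 0.782 and 0.663 in WT and 0.302, 0.327 and 0.334 in Cd226-/- libraries. These ratios show unequal change and not which side moved. They are descriptions without a test, and the first one includes Pgls, Rpia, Rpe, Tkt and Pfkm, which missed the threshold. G6pdx over Gpi1 and Taldo1 over Tpi1 pair genes already called in opposite directions, so their separation only restates those calls. The first ratio mostly restates calls too. In WT, Taldo1, G6pdx and Pgd, which fell, held 537, 347 and 193 of the 1344 CPM of the 7 pentose phosphate genes. All genes of upper glycolysis but Pfkm and Aldoc (7.58 and 10.7 of 3862 CPM in WT) were called higher. In CPM, the 7 pentose phosphate genes summed to 1344 ± 15.3 in WT and 1072 ± 37.9 in Cd226-/- libraries (SD, n = 3). Taldo1 made up most of this fall, at 537 ± 10.3 CPM in WT and 362 ± 10.5 CPM in Cd226-/- libraries. All 32 genes summed to 12364 ± 358 and 14492 ± 781 CPM, a ratio of 1.17.

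Levels of different genes can be compared only per length of transcript. In WT libraries Pkm ranked first of the 32, at 1464 CPM per kb, followed by Ldha at 920, Aldoa at 582, Tpi1 at 453, Taldo1 at 394 and Hk3 at 357 CPM per kb. G6pdx, at 131 CPM per kb, had a higher row value than Gapdh, at 58.3 CPM per kb, and the lowest was Slc2a3, at 0.562 CPM per kb. The Gapdh value is uncertain, since 82.5% of its windows are shared and the rows of its copies held more CPM than its own. With these rows added it summed to 179 ± 23.0 CPM in WT, and whether reads are missing from both is not known. The levels of Eno1, Pgk1 and Pgam1, with 72.2%, 68.0% and 41.5% shared windows, are uncertain too. Among the hexokinases, Hk3 made up 85.3% ± 0.516 of the counts per kb in WT and 82.9% ± 0.245 in Cd226-/- libraries, and Hk2 6.22% ± 0.448 and 8.17% ± 0.0733 (SD, n = 3). The shares of both genes did not overlap between genotypes. Among the phosphofructokinase subunits, Pfkp made up 30.1% ± 2.40 in WT and 33.6% ± 0.443 in Cd226-/- libraries, and Pfkm 3.57% ± 0.425 and 1.71% ± 0.105, without overlap. The share of Pfkl overlapped, at 66.3% ± 2.29 and 64.7% ± 0.345. Slc2a1 made up 35.6% ± 1.03 of the listed glucose transporters in WT and 39.4% ± 3.06 in Cd226-/- libraries, without overlap but with a small gap. Slc16a3 made up 81.8% ± 3.24 and 85.5% ± 0.724 of the lactate transporters, with overlap. Aldoa and Ldha each made up over 99% of their pair in every library.

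**Figure D4:**
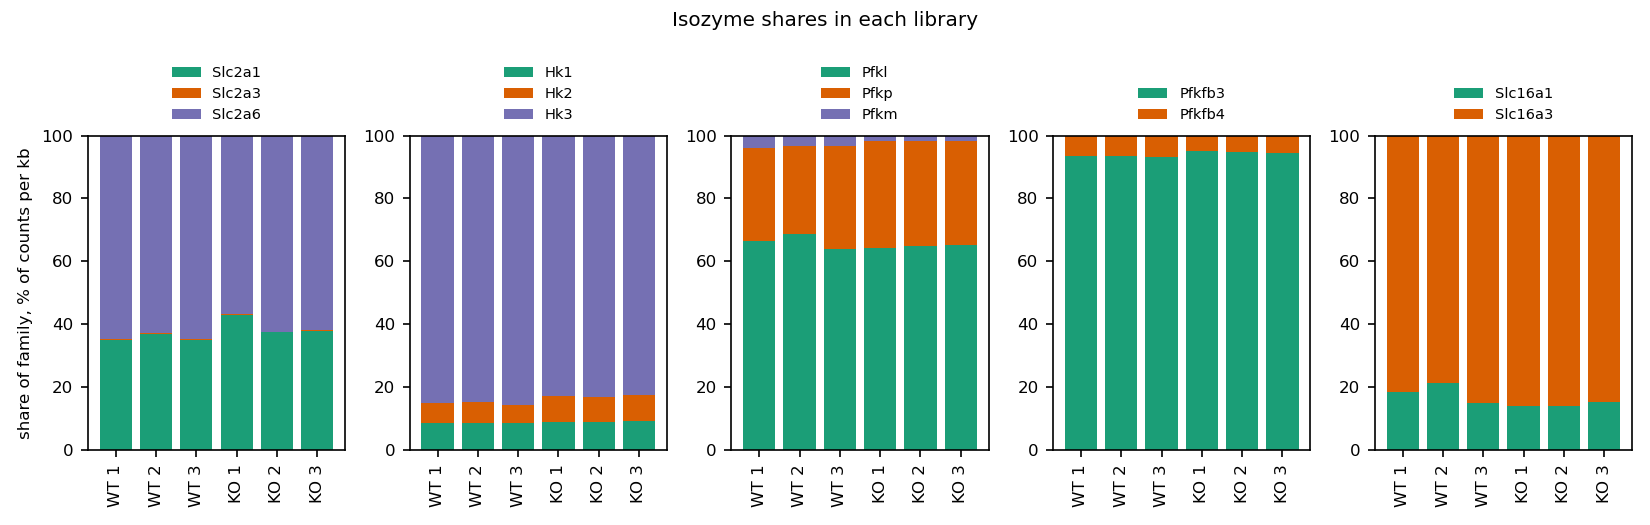
Share of each gene in its family, in percent of counts per kb of transcript (y axis, 0 to 100), in each WT and Cd226-/- (KO) library (x axis). Per kb, the main form of each family was the same in all 6 libraries: Slc2a6, Hk3, Pfkl, Pfkfb3 and Slc16a3; the share of Hk2 went from 6.22% to 8.17%.

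Beyond the 32 genes, 69 others of glucose use were listed: further isozymes and transporters, the gluconeogenic side, pyruvate dehydrogenase and its control, side branches and regulators. Of these 49 were tested, 8 rose, 11 fell and 30 missed the threshold (16.1% and 14.8% of all genes were called higher and lower), and 20 had too few counts, at most 60 in all. The 5 listed genes of the pyruvate dehydrogenase complex itself (Pdha1, Pdhb, Pdhx, Dlat and Dld) missed the threshold, with log2 fold changes from 0.0072 to 0.38. Its kinases moved apart: next to Pdk1, Pdk3 rose 1.49-fold (adjusted p = 7.71e-06, edgeR), whereas Pdk2 fell to 70.4% of the WT level (adjusted p = 0.0202, edgeR). Pdk4, with 11, 14 and 13 counts for WT, was down to 1, 0 and 0 counts for Cd226-/- (adjusted p = 0.000338, edgeR). Its ratio of summed counts over library size was 0.0284 (exact 95% interval 0.000702 to 0.168, counting error only). Mpc1, a subunit of the mitochondrial pyruvate carrier, rose 1.36-fold (adjusted p = 0.00475, edgeR), while its partner Mpc2 missed (log2 fold change 0.01).

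Basigin, encoded by Bsg, is the chaperone of MCT1 and MCT4. Unlike Slc16a1 and Slc16a3, Bsg fell, to 86.4% of the WT level (adjusted p = 0.0102, edgeR). H6pd, which makes NADPH in the endoplasmic reticulum from glucose 6-phosphate, fell to 75.1% (adjusted p = 8.01e-06, edgeR). Adpgk, an ADP-dependent glucokinase, fell to 75.8% and Akr1b3, the aldose reductase of the polyol pathway, to 63.3%. The isozymes that start hexosamine synthesis went opposite ways: Gfpt1 rose 1.54-fold (adjusted p = 1.34e-06, edgeR) and the much lower Gfpt2 fell to 53.1% (adjusted p = 6.11e-05, edgeR). Pck2, the mitochondrial phosphoenolpyruvate carboxykinase, rose 2.38-fold, from 6.71 ± 0.791 to 15.9 ± 1.64 CPM (SD, n = 3; adjusted p = 1.60e-07, edgeR). Pgm2 rose 1.33-fold and Pgp, a phosphatase that clears side products of glycolysis, 1.43-fold. Minpp1, Gpd2, Gpd1l and Arrdc4 fell, by 0.29, 0.15, 0.47 and 0.16 on the log2 scale.

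Among regulators, Hif1a encodes the oxygen-regulated subunit of the hypoxia-inducible factor. It measured 789 ± 6.52 CPM in WT and 953 ± 55.6 CPM in Cd226-/- libraries (SD, n = 3). The rise was 1.21-fold without overlap (adjusted p = 0.000307, edgeR). ACGTG stood upstream of Slc2a1 and Hk2, which rose, but not in the windows of Pdk1, which rose too. It also stood upstream of Ldha and Pgk1, which missed the threshold (log2 fold change 0.10 and -0.07, adjusted p = 0.203 and 0.528, edgeR). The part of Hif1a in these changes was not tested. Mlxip, which encodes the glucose-sensing factor MondoA, rose 1.18-fold (adjusted p = 0.00116, edgeR), and its target Txnip missed the threshold (log2 fold change -0.10, adjusted p = 0.198, edgeR). Myc was low, at 3.60 ± 1.04 CPM in WT and 3.10 ± 0.471 CPM in Cd226-/- libraries (SD, n = 3), and missed (adjusted p = 0.544, edgeR). Tigar, for a fructose 2,6-bisphosphatase, and Pfkfb2 missed as well (log2 fold change -0.07 and -0.13). Some of these calls depended on single libraries or settings. Without WT replicate 2, Pdk2 (adjusted p = 0.0822) and Gpd2 (0.0828) were lost. Without WT replicate 3, Bsg (0.0618) and Gpd2 (0.0647) were lost, and without Cd226-/- replicate 3, Bsg (0.0750), Gpd2 (0.0615) and Pdk2 (0.115). Without WT replicate 1 Arrdc4 was lost (0.105), and without Cd226-/- replicate 2 Arrdc4 (0.0948), Bsg (0.0586) and Gpd2 (0.0658). With replicate 1 as the only Cd226-/- library, Bsg (0.599), Pdk2 (0.261), Arrdc4 (0.0643), Gpd2 (0.0636) and Pdk4 (0.0641) were lost, and with GC and length offsets Gpd2 (0.0570). Leaving out Cd226-/- replicate 1 brought Txnip past the threshold (log2 fold change -0.15, adjusted p = 0.0228, edgeR).

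**Figure D5:**
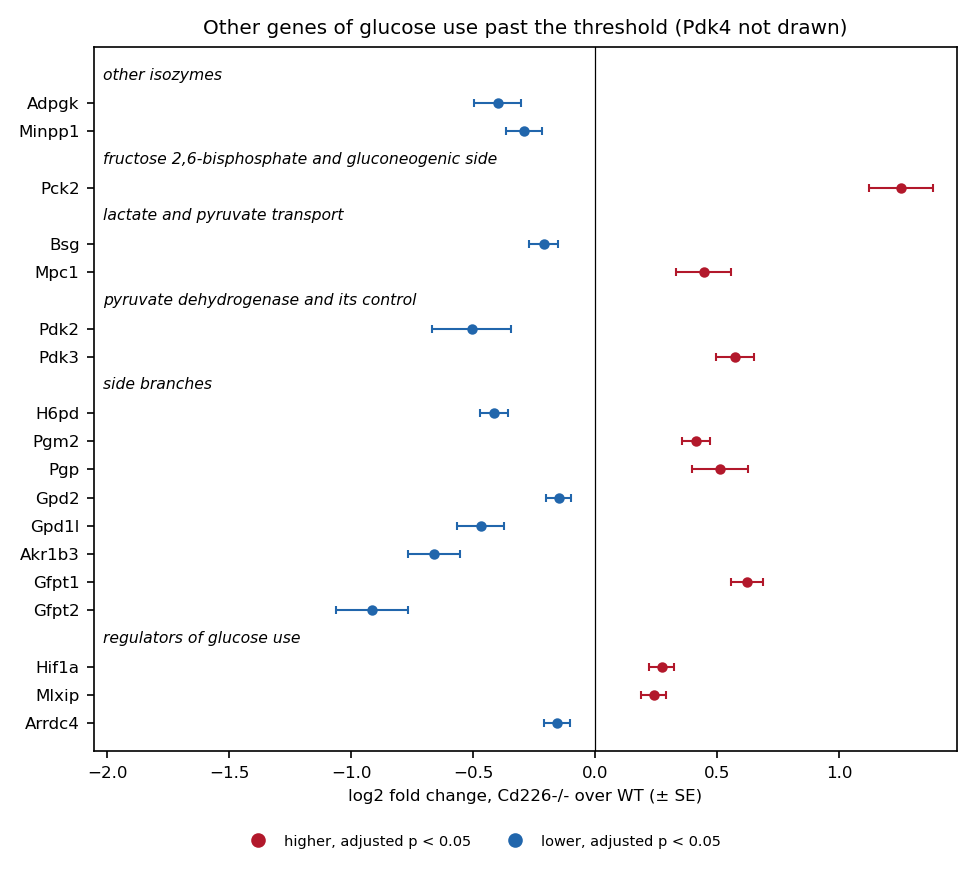
Log2 fold change (x axis, Cd226-/- over WT, ± 1 SE, 3 libraries a genotype) of 18 of the other listed genes past the threshold, by group (y axis). Pdk4, also past it, was left out (log2 fold change -4.72 ± 0.90 SE) and is given in counts in the text. Pck2 shows the largest rise and Gfpt2 the largest fall drawn.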

How the data were processed

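RNA was harvested with Trizol and libraries followed Illumina's procedure, per the labels' protocols. The values are unnormalized read counts per gene, deposited by the authors as a single table. HISAT2 and the build GRCm38 are named in the submitters' processing notes; how reads were counted, with which annotation and strand setting, is not given in the sources used here. Columns were matched to samples by title, and 0 columns were left unused.

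Counts were filtered with filterByExpr, scaled by TMM and tested by genotype alone with edgeR 4.0.16 (robust quasi-likelihood F-test, two-sided, R 4.3.3), adjusted by Benjamini and Hochberg over 13215 genes. SE is the log2 fold change over the square root of F. Self-tests on simulated data ran with each rebuild (5 sets, with 200 of 13215 genes changed). In them edgeR recovered 39.6% of genes changed 1.25-fold and 67.2% of those changed 1.5-fold. The false share among its calls was 8.02% on average, above the 0.05 that the threshold aims for. In the measured data 30.9% of the genes tested were called, far more than were changed here. The simulated rates may therefore not carry over to them. The alternatives were DESeq2 1.42.0 (size factors, Wald test), limma-voom (3.58.1), scaling by library size, no filter, a mean of at least 5 CPM, the replicate block, each library left out, replicate 1 as the only Cd226-/- library, an adjusted p under 0.01, and offsets for GC content and length (lowess span 0.3, values for 94.1% of genes). The 32 genes, the other lists and the markers were chosen with earlier results of these data known. The text names all 32 genes, every other listed gene past the threshold, and Myc, Txnip, Tigar, Pfkfb2, Mpc2, Fbp1 and Shpk whatever their values; other genes serve as checks. Pairs of libraries within a genotype differed by more than counting noise.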

Additional observations from a re-analysis of the deposited data

How the results depend on the processing

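Of the 19 genes called among the 32, 18 kept their call and direction under all 15 alternatives; Aldoc lost its call when any 1 of 4 libraries was left out. The number higher was 15 to 17 and the number lower 3 to 5. The median log2 fold change of the 32 genes, 0.15, was 0.097 with library size alone, 0.21 over the 30 genes left by a mean of at least 5 CPM (Slc2a3 and Ldhb drop out), 0.23 when Cd226-/- was represented by replicate 1 alone, 0.11 with GC and length offsets, and 0.12 to 0.19 with each library left out. At an adjusted p under 0.01, 2636 of all genes differed, 1167 of them lower, and 7 other pathway genes were lower. Without length correction, the share of Aldoa moved by 0.588 percentage points, against 0.329, that of Hk2 by 2.92, against 1.94, and Slc2a1 (53.3%) passed Slc2a6 (46.3%) in Cd226-/- replicate 1. The causes were not tested.

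Changes of sign (log2) met only genes that missed the threshold. Library size alone gave Pfkfb4 -0.042 and Eno1 -0.052; no filter gave -0.00045 and -0.00996; GC and length offsets gave -0.00063, -0.027 and, for Pgls, -0.076. Replicate 1 as the only Cd226-/- library gave Slc2a3 0.091, Gapdh -0.0015 and Rpe -0.30. With single libraries left out, Pfkfb4 ranged from -0.0039 to 0.031, Eno1 from -0.049 to 0.088, Rpe from -0.070 to 0.20, Pgk1 from -0.12 to 0.043 and Pgls from -0.037 to 0.17.

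The labels do not say whether equal replicate numbers pair the samples. Same-number correlations of deviations were 0.0105, -0.0128 and 0.0151, which shows no clear pairing but cannot exclude one with a small effect. With the replicate block, 16 of the 32 genes were higher and 4 lower, Gapdh passed (adjusted p = 0.0211, edgeR), and 4137 of all genes differed. For genes near 2 to 10 CPM (Slc2a3, Ldhb, Pfkm, Aldoc), counts limit what could be detected.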

Other observations

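A few listed genes that had too few counts to be tested were seen in Cd226-/- replicates 2 and 3. Fbp1 stood at 0 counts in every WT library and at 0, 4 and 4 in Cd226-/- replicates 1 to 3, and G6pc at 0 in every WT library and at 0, 4 and 2. Shpk, the sedoheptulose kinase that feeds the non-oxidative pentose phosphate arm, was at 1, 0 and 0 counts for WT and at 0, 6 and 3 for Cd226-/-. The same 2 libraries held 266 and 279 counts of the hepatocyte marker Alb, which had 0 in the other 4 libraries. Whether these counts come from the same source was not tested.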
